A study of Homo sapiens with 17 samples.

Results

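The genes described here encode the proteins of the mitochondrial ribosome: 77 genes whose symbol is MRPL (49 genes, named for the large subunit) or MRPS (28 genes, named for the small subunit) followed by a number. They were chosen by symbol alone, from the gene and exon or intron annotation that the authors deposited with each region, and the rule uses no measured value. The 77 genes held 866 regions of 326944 in all. By line these were 311 of the 139373 regions listed for HPr1AR, 307 of the 110260 for LNCaP and 248 of the 77311 for 22Rv1. Every one of the 77 was listed in all 3 lines. Of 77 protein-coding symbols of this form in RefSeq, 76 were listed, and MRPS18B was not found in any of the 3 tables. The remaining listed symbol, MRPS36, is an older name of a gene that RefSeq calls KGD4, whose product is now known as part of the 2-oxoglutarate dehydrogenase complex.

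The study measured N6-methyladenosine (m6A), a methyl mark on adenosines of RNA, in 3 human prostate lines. HPr1AR cells stand for non-malignant prostate and were grown in keratinocyte serum-free medium, and LNCaP and 22Rv1 are prostate cancer lines grown in RPMI with serum. All cells were wild type and vehicle treated, and for each line fragmented RNA was pulled down with an antibody to m6A or with control IgG and sequenced. The 17 samples made 6 groups of 3, except 22Rv1 m6A with 2. Each deposited table compares m6A with IgG in 1 line and holds no value per sample, so the spread between the labelled biological replicates could not be measured, and every error given here is counting error of the pooled reads in 1 window per region.

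The mitochondrial ribosome makes the few proteins encoded by mitochondrial DNA, all of them parts of oxidative phosphorylation. Its own proteins are encoded in the nucleus, translated in the cytosol and imported, and its ribosomal RNAs come from the mitochondrial genome. On nuclear transcripts m6A is written by the METTL3-METTL14 complex, and it is known to lie mostly near stop codons, in the last exon and in long internal exons, and to bear on splicing, decay and translation. An antibody pulldown reads the mark as more reads over a stretch of RNA than in a control pulldown.

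Whole read numbers were rebuilt from the deposited fold and p-value of each region's representative window. The library depths rebuilt in this way were 5.13 M m6A and 11.7 M IgG reads in HPr1AR, 3.92 M and 8.87 M in LNCaP, and 3.30 M and 4.82 M in 22Rv1. The quantity given below is the log2 read ratio, the log2 of m6A over IgG reads after division by these depths. A region was called higher or lower where a 2-sided exact binomial test gave a Benjamini-Hochberg adjusted p of 0.05 or less over all regions of that line. Read pairs are printed as m6A reads and then IgG reads. Where the deposited p-value was 0, the smallest fitting pair is printed with the words "at least", and the reads, the ratio and the adjusted p are bounds. Where several pairs fitted, the pair closest to the deposited fold was used. This was so for 1, 25 and 0 member regions of HPr1AR, LNCaP and 22Rv1, which carry no mark in the text. A ratio with 0 reads on the IgG side was computed against 3 reads and is a lower bound too. Region positions are those of the deposited tables, whose genome build is uncertain: the submitters' processing notes name hg38, but only 36 of 856 member regions overlap their gene's span in GRCh38.p14.

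The deposited tables list every region as up, so stretches with fewer m6A than IgG reads could enter only where the deposited fold allowed it. That fold subtracts the IgG log rate 2 times and ran from 16.3 to 29.4 over the member regions of HPr1AR, which no ordinary read ratio reaches. It is replaced here by the read ratio. The authors' deposited table put 300, 288 and 248 member regions of HPr1AR, LNCaP and 22Rv1 at an adjusted p of 0.05 or less, which is 96.5%, 93.8% and 100% of them, against 96.5%, 95.4% and 99.3% of all regions.

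The lines carried the markers of their labels in part. Of 6 luminal prostate genes, LNCaP and 22Rv1 listed all 6, and HPr1AR did not list KLK3, KLK2, TMPRSS2 and FOLH1. Of 5 basal epithelial genes, HPr1AR listed all 5 with 2815 summed IgG reads, and LNCaP and 22Rv1 listed only LAMB3, with 1 and 0 IgG reads. The mesenchymal genes VIM, FN1 and COL1A1 were listed in all 3 lines, with 596, 970 and 150 summed IgG reads in HPr1AR, LNCaP and 22Rv1. The part of these marker differences in the results below was not tested.

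Stretches before the starts of some of these genes are printed first. Of the 77, 32 (41.6%) had, in all 3 lines, a region called higher that the deposited annotation marks as promoter and exon of the gene. Only 5′ end and lone exon regions, as defined below, were counted. Among genes listed in all 3 lines the share was 35.9%. Such a mark does not show that the region holds the transcript start. RefSeq (GRCh38.p14) gave a promoter window, from 250 bases before to 50 after the start, for 68 of the 77 (88.3%). The ETS-type motif CCGGAAGT, searched on both strands, was in 12 of the 68 windows (17.6%), against 6.97% of 15843 protein-coding windows of the same length. The YY1-type motif AAGATGGCG was in 12 (17.6%), against 3.21%, and the NRF1-type motif GCGCATGCG in 3 (4.41%), against 3.11%. Each stretch printed here holds matches of 1 motif type only. A match is a match of letters and not a measured binding site. For the 32 genes, up to 130 bases before the start were searched, cut short at the start of any other gene. Genes without a promoter window and genes of 1 chromosome were left out of this search. In 6 genes the stretch holds one of these motifs, with no share over other genes computed. For 4 of the 6 that stretch lies outside every RefSeq gene. These 4 are printed 5′ to 3′ on the gene's strand, with the motif in capitals: the NRF1 type in MRPL17 (chr11:6683341-6683470, minus strand, where the first run of capitals holds overlapping matches on both strands), and the ETS type in MRPL20 (chr1:1407294-1407423, minus strand), MRPL51 (chr12:6493263-6493392, minus strand, as its reverse complement) and MRPL53 (chr2:74472681-74472810, minus strand).
MRPL17: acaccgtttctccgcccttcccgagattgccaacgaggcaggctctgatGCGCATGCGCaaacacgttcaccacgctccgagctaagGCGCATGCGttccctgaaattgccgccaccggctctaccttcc
MRPL20: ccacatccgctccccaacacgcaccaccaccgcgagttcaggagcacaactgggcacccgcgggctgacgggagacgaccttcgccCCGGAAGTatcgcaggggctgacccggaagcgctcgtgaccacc
MRPL51: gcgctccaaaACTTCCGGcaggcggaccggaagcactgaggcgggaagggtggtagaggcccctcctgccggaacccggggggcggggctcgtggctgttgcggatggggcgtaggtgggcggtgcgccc
MRPL53: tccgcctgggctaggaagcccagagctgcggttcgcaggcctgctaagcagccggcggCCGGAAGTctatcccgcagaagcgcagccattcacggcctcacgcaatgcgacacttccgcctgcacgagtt

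The regions marked in this way for these 4 genes were called higher in each line. For MRPL17, MRPL51 and MRPL53 the region is the gene's only one, so the window behind its reads cannot be placed at the start. Those of MRPL51 and MRPL53 also hold exons of NCAPD2 and CCDC142. MRPL17 had at least 61 and 31 reads in HPr1AR, at least 68 and 52 in LNCaP, and 72 and 26 in 22Rv1, for log2 read ratios of at least 2.17, at least 1.56, and 2.02. The 5′ end region of MRPL20 had ratios of at least 4.41, 6.11 and 4.28 in the same order, the region of MRPL51 at least 5.0, at least 4.76, and 4.27, and the region of MRPL53 3.66, 2.20 and 3.39. A neighbour that starts on the opposite strand is frequent in this family: 13 of the 68 (19.1%) have a protein-coding start on the other strand within 250 bases upstream, against 8.22% of all protein-coding genes. Examples are MRPS12 with SARS2, MRPS18C with HELQ, MRPL49 with FAU and MRPL32 with PSMA2. Reads of such a pair cannot be told apart where their exons meet in 1 region, since strand use in the counting is not given in the sources used here.

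Fewer than 1 in 2 of the regions of the family passed the test in any line, and nearly all that passed were higher in m6A. HPr1AR had 137 of its 311 regions (44.1%) called higher, against 40.6% of all regions. LNCaP had 121 of 307 (39.4%), against 40.1%. 22Rv1 had 120 of 248 (48.4%), against 56.4%. A single region was called lower in each line, against 0.122%, 0.159% and 0.933% of all regions of HPr1AR, LNCaP and 22Rv1. The share of regions called higher in the family was therefore near the background in HPr1AR and LNCaP and below it in 22Rv1, and none of these differences was tested.

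The median log2 read ratio of the family was 1.19, 1.18 and 1.46 in HPr1AR, LNCaP and 22Rv1, beside 1.19, 1.18 and 2.10 over all regions. These medians lie above 0, so the depths do not centre the ratios. With the IgG depth rescaled so that the median of all regions was 0, a shift equal to those all-region medians, 66 member regions were higher and 27 lower in HPr1AR, 61 and 21 in LNCaP, and 27 and 70 in 22Rv1. The higher shares were then 21.2%, 19.9% and 10.9%, beside 21.6%, 21.7% and 17.2% of all regions. The lower shares of all regions were not computed at this depth, so the lower counts have no background. Member regions were covered by a median of 17, 14 and 19 reads, against 11, 10 and 13 over all regions. Of member regions with at least 20 reads, 72.7%, 74.0% and 76.4% were called higher, against 73.1%, 74.1% and 81.4% of all such regions.

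**Figure D1:**
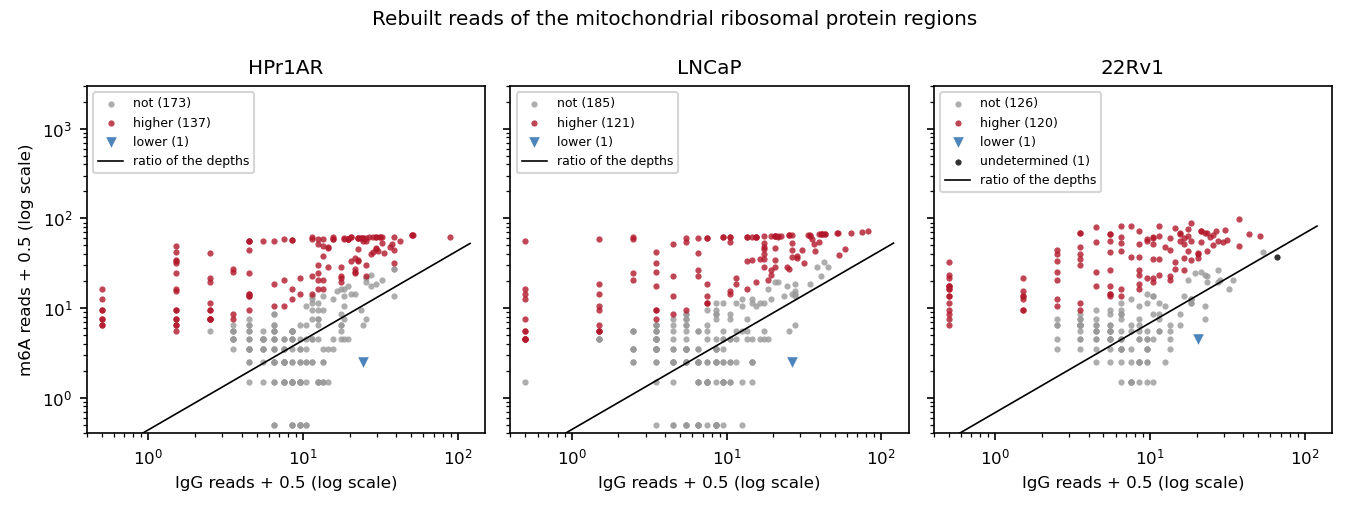
Rebuilt m6A reads (y axis, reads + 0.5, log scale) against IgG reads (x axis, reads + 0.5, log scale) of every member region, 1 panel per line; the line marks the ratio of the depths, and colours mark the call. Regions called higher (137, 121 and 120) lie well above the line, and a single region per line lies far enough below it to be called lower.

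Counted by gene, 71 of the 77 had at least 1 region called higher in HPr1AR (92.2%, against 93.1% of all listed genes), 63 in LNCaP (81.8%, against 90.8%) and 65 in 22Rv1 (84.4%, against 91.2%). In all 3 lines together 61 genes were higher (79.2%, against 65.7% of genes listed in any line and 87.3% of genes listed in all 3). Of the MRPL genes, 39 of 49 were higher in all 3 lines, and of the MRPS genes 22 of 28. With the centred depth, 50, 47 and 19 genes were higher in HPr1AR, LNCaP and 22Rv1 (64.9%, 61.0% and 24.7%, against 77.3%, 74.5% and 55.7% of all listed genes). At that depth 18 were higher in all 3 (23.4%, against 40.4% of genes listed in any line). The share over genes listed in all 3 was not computed for this depth. A gene with more regions has more chances to be called: members held a median of 3 regions per line and all genes 5, 4 and 4, and 12, 13 and 17 members had a single region in HPr1AR, LNCaP and 22Rv1.

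Among the higher members, the leading region (that with the smallest adjusted p) had log2 read ratios from 1.35 to 6.58 in HPr1AR with a median of 2.78, from 0.99 to 7.04 in LNCaP with a median of 2.83, and from 0.85 to 5.07 in 22Rv1 with a median of 2.71. For 51 of the 61 genes higher everywhere (83.6%), the leading regions of the 3 lines overlapped each other. The matching share over all genes was not computed, so this share is not shown to be particular to the family. The other 10 had their leading region elsewhere in at least 1 line: MRPL12, MRPL19, MRPL2, MRPL20, MRPL30, MRPL37, MRPL4, MRPS17, MRPS33 and MRPS5.

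**Figure D2:**
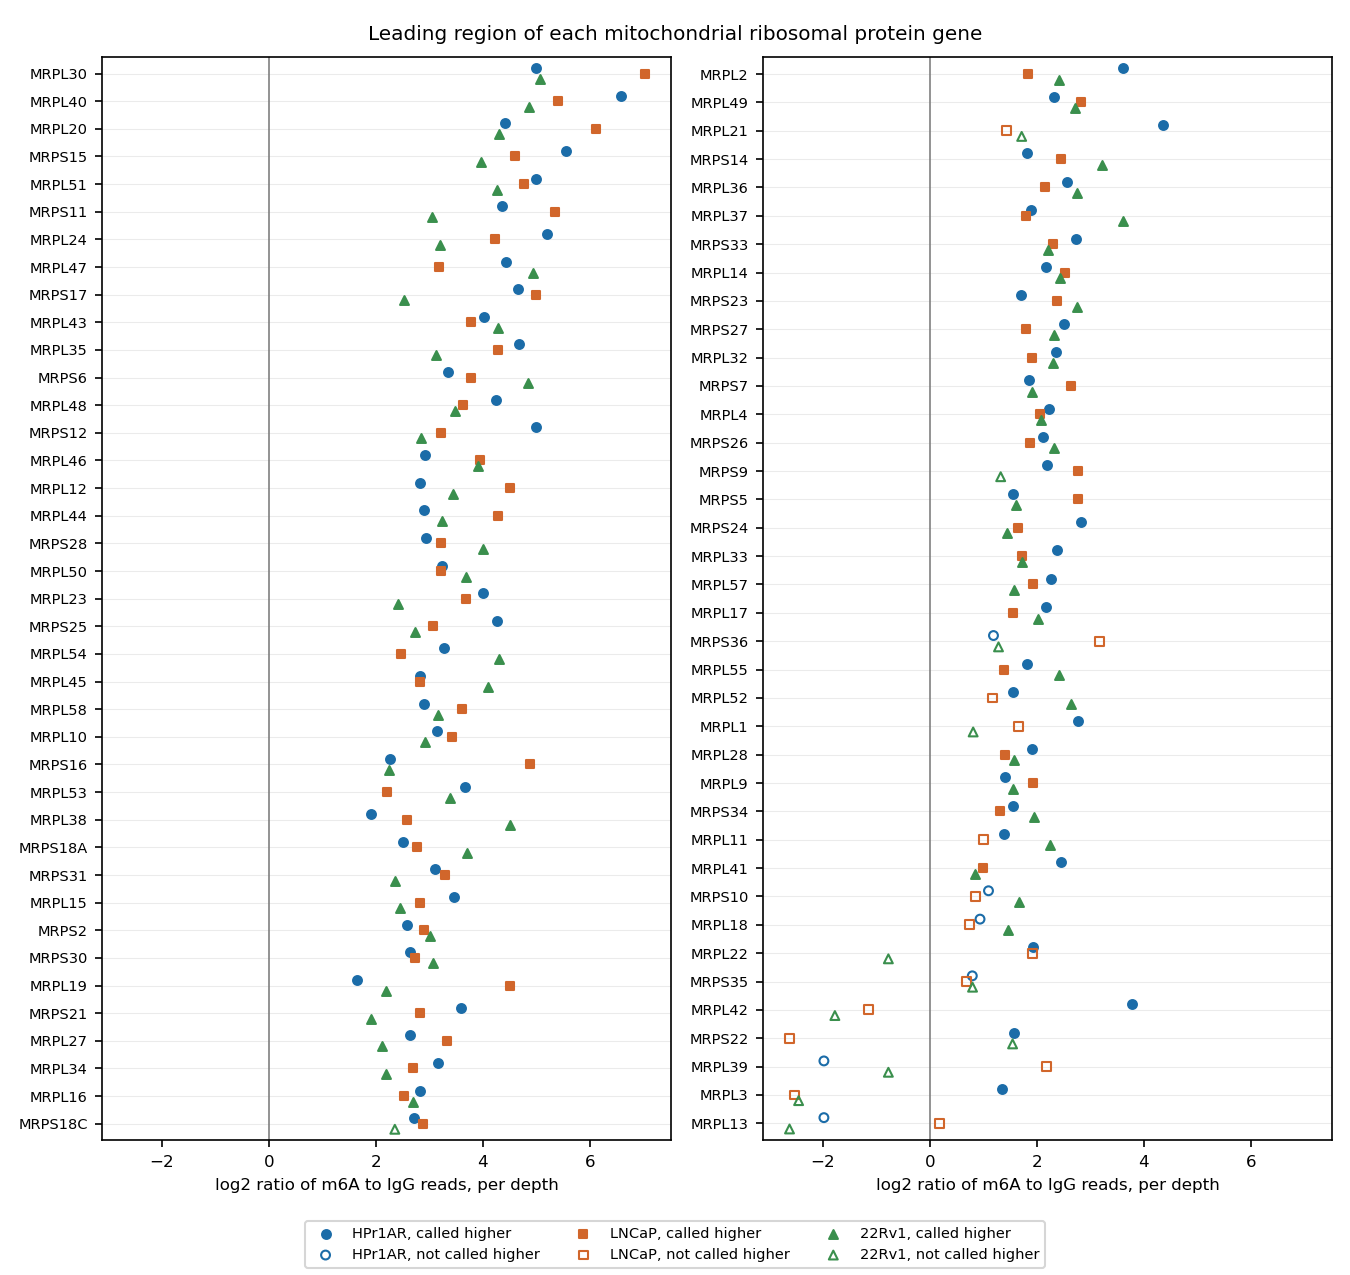
Log2 read ratio of the leading region of each of the 77 genes in HPr1AR (circles), LNCaP (squares) and 22Rv1 (triangles); filled symbols were called higher, open ones were not, and some filled symbols are lower bounds. Genes are ordered by mean ratio: MRPL30 and MRPL40 stand at the top, and MRPL13, MRPL39, MRPS35 and MRPS36 have no filled symbol.

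Exon regions of the family placed at the ends of the genes were called higher more often than internal ones, and this held over all genes too. The deposited tables name the exons within 10 kb on either side of a region, and an exon region was put at the 3′ end where the gene's other exons were named only upstream of it. A long intron can therefore set the label before the last exon. Such 3′ end regions were called higher in 58.6% of 70 cases in HPr1AR, 59.7% of 67 for LNCaP and 67.7% of 65 for 22Rv1, beside 63.8%, 63.5% and 69.9% over all genes. Those at the 5′ end, with other exons only downstream, were higher in 71.7% of 46, 57.4% of 47 and 57.1% of 42, beside 60.5%, 58.8% and 64.1%.

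Internal exon regions, with exons of the gene on both sides, were higher in 21.2% of 85, 17.5% of 80 and 18.3% of 71, beside 31.1%, 28.4% and 34.8%. Lone exon regions, with no further exon of the gene within that distance, were higher in 73.1%, 69.2% and 69.2% of 26 each, beside 66.9%, 64.5% and 71.0%. Intron regions free of any gene's exon were higher in 22 of 73 (30.1%), 14 of 74 (18.9%) and 14 of 28, beside 27.5%, 27.4% and 58.6%. MRPL30 gave 6, 8 and 9 of these, and without it 16 of 64, 6 of 63 and 5 of 19 were higher. Over all exon places together, 111 of 227 member regions were higher in HPr1AR, 99 of 220 for LNCaP and 99 of 204 for 22Rv1, beside 45.6%, 44.3% and 51.7% of all exon regions. No test was made of these shares. Regions at the 3′ end were wider and held more reads than internal ones, with a median of 570 bases and 47.5 reads against 200 bases and 15 reads in HPr1AR.

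**Figure D3:**
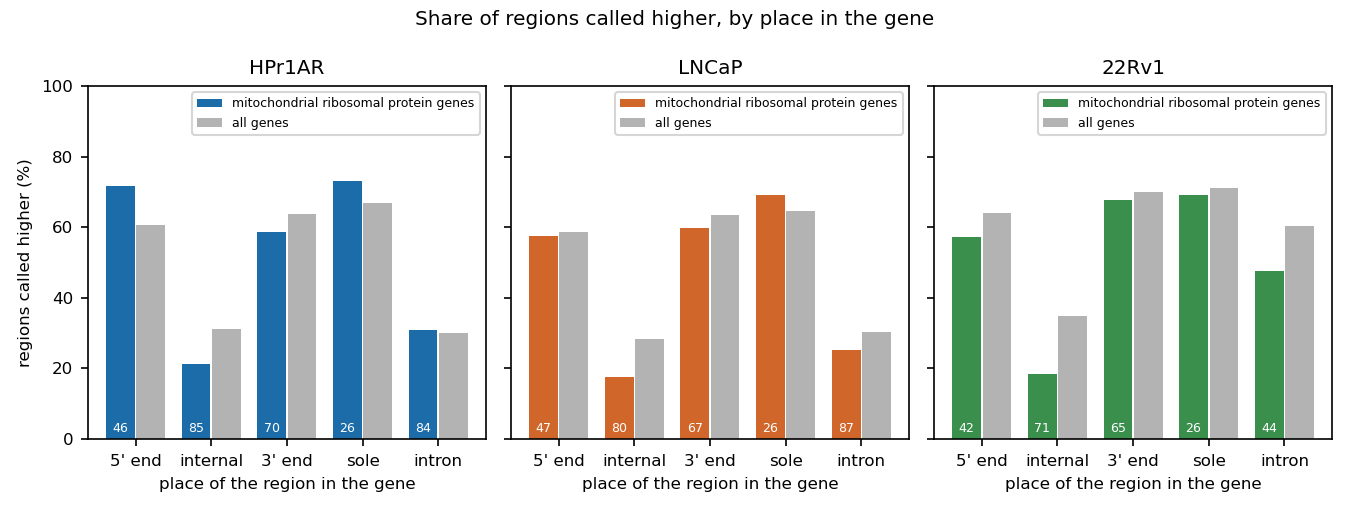
Percent of regions called higher by place in the gene for the members (coloured bars, number of regions in white) and for all genes (grey bars), 1 panel per line; introns here include those that hold an exon of another gene. Bars of internal exons stand lowest among the exon classes for members in all 3 lines, at 21.2%, 17.5% and 18.3%.

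Of the genes called higher, the leading region was at the 3′ end in 29 of the 71 in HPr1AR (40.8%), 30 of the 63 for LNCaP (47.6%) and 34 of the 65 for 22Rv1 (52.3%), beside 40.3%, 44.1% and 46.3% of all genes called higher. It was at the 5′ end in 14, 8 and 10 (19.7%, 12.7% and 15.4%, beside 13.6%, 13.2% and 11.7%). Both ends were called higher in 22, 23 and 19 of the 77 genes (28.6%, 29.9% and 24.7%, against 28.1%, 24.8% and 24.3% of all listed genes). Some were higher only through introns: MRPL1, MRPL23, MRPL42 and MRPL48 in HPr1AR, and MRPL23 and MRPL48 in LNCaP and 22Rv1. The intron region of MRPL48 held 25 and 3 reads in HPr1AR, 22 and 4 in LNCaP, and 23 and 0 in 22Rv1.

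Several large subunit genes led through a 3′ end region that no other annotated exon shares. MRPL46, a large subunit protein, had 60 and 18 reads in HPr1AR, at least 61 and 9 in LNCaP and 62 and 6 in 22Rv1 over its last exon (chromosome 15, 89002701 to 89003110), with ratios of 2.93, at least 3.94, and 3.92. Its internal region was not called higher in any line, at 17 and 19, 11 and 8, and 11 and 9 reads. MRPL45, known to lie near the exit of the peptide tunnel and at the inner membrane, had 62 and 20, at least 63 and 20, and 82 and 7 reads at its 3′ end (chromosome 17, 36478001 to 36479070), for ratios of 2.82, at least 2.83, and 4.10 with an adjusted p of 9.22e-23 in 22Rv1. MRPL35 had at least 56 and 5, at least 60 and 7, and 60 and 10 reads at its 3′ end (chromosome 2), with ratios of at least 4.68, at least 4.28, and 3.13. In all 3 genes, m6A reads exceeded IgG reads in every line although the IgG libraries were deeper.

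MRPL44, a large subunit protein with an RNase III type fold, showed 3 separate regions called higher. The internal region (chromosome 2, 224824241 to 224824770) had at least 59 and 18 reads in HPr1AR, at least 60 and 7 in LNCaP and 58 and 9 in 22Rv1. The 3′ end (224831571 to 224831890) had 62 and 26, 40 and 17, and 43 and 17 reads, with ratios of 2.44, 2.41 and 1.89. A further internal exon between them had 10 and 10, 7 and 5, and 6 and 3 reads and was not called. The 5′ end (224822161 to 224822800) had 31 and 1 reads in HPr1AR, 13 and 7 in LNCaP, and 8 and 6 in 22Rv1, with ratios of 6.14, 2.07 and 0.96. That of 22Rv1 was not called (adjusted p = 0.3697, exact binomial test).

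MRPL19, a large subunit protein, was called at 2 places of its 3′ part. The region at chromosome 2, 75881851 to 75883660, had 51 and 37, 36 and 28, and 56 and 18 reads, with ratios of 1.65, 1.54 and 2.18. A later region had 14 and 4 reads in HPr1AR and 20 and 2 in LNCaP, with ratios of 3.00 and 4.50, and 22Rv1 had 2 regions there, with 9 and 1 and with 14 and 5 reads and ratios of 3.72 and 2.03, both called higher. In 22Rv1 the start region had 13 and 0 reads, a ratio of at least 2.66, while HPr1AR with 12 and 11 and LNCaP with 8 and 8 were not called there. Over the 3 lines, 8 of its 28 regions were higher.

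Among the genes named MRPS, MRPS15, MRPS12, MRPS18A, MRPS27 and MRPS30 had their leading region at the 3′ end in all 3 lines. MRPS15, a conserved small subunit protein, had 41 and 2, 54 and 5, and 32 and 0 reads there (chromosome 1, 36920911 to 36922000), with ratios of 5.55, 4.61 and at least 3.96. Its 5′ end, at 16 and 17, 11 and 11, and 10 and 8 reads, was not called in any line. MRPS12, a homologue of the bacterial S12 protein of the decoding centre, had at least 56 and 4, at least 62 and 15, and 89 and 18 reads at its 3′ end (chromosome 19, 39422961 to 39423760), with ratios of at least 5.0, at least 3.22, and 2.85. Its 5′ end is shared with SARS2, the mitochondrial seryl-tRNA synthetase, and was called higher too at 21 and 9, 21 and 11, and 27 and 14 reads.

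MRPS27, a pentatricopeptide repeat protein of the small subunit, spread over 88.83 kb of chromosome 5 with 37 regions, of which 4 were higher. Its 3′ end (71515341 to 71516990) had at least 60 and 24, at least 66 and 43, and 72 and 21 reads, with ratios of at least 2.51, at least 1.80, and 2.32. An internal exon had 11 and 12, 19 and 21, and 8 and 11 reads and was not called. MRPS30, whose product is known as a large subunit protein despite its name, had at least 60 and 22, 62 and 21, and 63 and 11 reads at its 3′ end, with ratios of at least 2.64, 2.74 and 3.07, and an internal exon at 7 and 18, 5 and 2, and 4 and 13 reads was not called. Its 5′ end had 34 and 22, 18 and 27, and 19 and 10 reads, with ratios of 1.82, 0.59 and 1.47, and was called higher in HPr1AR and 22Rv1.

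The S18 paralogues differ in the tables. Mammals have 3 related proteins of this kind, of which MRPS18A is known as a large subunit component and MRPS18B and MRPS18C as small subunit ones. MRPS18A had at least 60 and 24, at least 63 and 21, and 71 and 8 reads at its 3′ end (chromosome 6, 43638881 to 43639660), with ratios of at least 2.51, at least 2.76, and 3.70. The LNCaP region also touches an exon of RSPH9. MRPS18C was covered thinly: its 5′ end, shared with HELQ in HPr1AR and LNCaP, had 20 and 7 and 13 and 4 reads there with ratios of 2.70 and 2.88, and 7 and 2 reads in 22Rv1 with a ratio of 2.35 that was not called (adjusted p = 0.06178, exact binomial test).

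Many of the strongest regions touch an exon of another gene, and their reads cannot be assigned to the ribosomal protein gene. Such regions made up 52 of 311 member regions in HPr1AR (16.7%), 53 of 307 for LNCaP (17.3%) and 52 of 248 for 22Rv1 (21.0%), against 8.52%, 10.1% and 12.5% of the regions of all genes. The leading region was a shared one in 21 of 71, 21 of 63 and 19 of 65 genes called higher (29.6%, 33.3% and 29.2%, beside 20.1%, 21.1% and 19.0% over all genes called higher). Genes called higher through shared regions alone numbered 15, 17 and 15 of the 77 (19.5%, 22.1% and 19.5%, against 8.61%, 9.56% and 7.94% of all listed genes), among them MRPL43, MRPL47, MRPL51, MRPL53 and MRPL57 in all 3 lines. With the shared regions left out, 97, 79 and 83 member regions were called higher (37.5%, 31.1% and 42.3% of those kept in HPr1AR, LNCaP and 22Rv1), against 36.4%, 36.5% and 52.8% of the unshared regions of all genes.

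MRPL30, with the most regions of the family, is the clearest case. Its 64 regions lay over 171.73 kb of chromosome 2 (99766941 to 99938670), and 21 of them hold an exon of another gene. Of the 43 regions placed in its introns, 34 were called higher, and of its 21 exon regions 6. Of the 14 exon regions that it does not share, 0 were called higher. The leading region of HPr1AR (99766941 to 99767530) holds C2orf15 exons and had at least 56 and 4 reads there, 59 and 2 in LNCaP and 68 and 3 in 22Rv1. An intron stretch that starts at 99817281 had 33 and 1, at least 58 and 1, and 69 and 3 reads, with ratios of 6.23, at least 7.04, and 5.07. The high place of MRPL30 in the plot of leading regions thus rests on stretches outside its own unshared exons.

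MRPS6 had 35 regions over 69.49 kb of chromosome 21, and 19 of them hold exons of SLC5A3, a myo-inositol transporter gene that lies within the MRPS6 locus. Of its 11 higher regions, 8 hold another gene's exon. The leading region is one of these, with at least 58 and 13, at least 61 and 10, and 79 and 4 reads. The own last exon of MRPS6 (35514701 to 35515330) had 36 and 21 reads in HPr1AR, 33 and 13 in LNCaP and 37 and 7 in 22Rv1, for ratios of 1.97, 2.52 and 2.95, and was called higher in all 3 lines.

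Other leading members share their regions with a neighbour. MRPL40 led at its 5′ end, which holds an exon of the histone chaperone gene HIRA, with 42 and 1, 56 and 0, and 40 and 2 reads (chromosome 22, 19418711 to 19421040). Its own 3′ end had 22 and 25, 32 and 42, and 22 and 23 reads with ratios of 1.01, 0.79 and 0.48, and was called higher only in HPr1AR (adjusted p = 0.04348, exact binomial test). The 3′ end of MRPL20 holds exons of CCNL2, a cyclin gene, and of an antisense RNA, while its unshared 5′ end (1341771 to 1343220 on chromosome 1) had at least 56 and 6, 61 and 2, and 40 and 3 reads.

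The single region of MRPL51 (chromosome 12, 6601291 to 6603330) holds an exon of NCAPD2, a condensin subunit gene, and had at least 56 and 4, at least 60 and 5, and 66 and 5 reads. MRPL43 shares its 5′ end with TWNK, the mitochondrial DNA helicase, at at least 57 and 8, at least 61 and 10, and 67 and 5 reads, and its other regions with SEMA4G. MRPL12, a large subunit stalk protein, shares both end regions with SLC25A10, a mitochondrial dicarboxylate carrier; the 3′ end had at least 59 and 19, at least 60 and 6, and 62 and 10 reads. MRPS25 shares the far 3′ end with NR2C2, at 59 and 7, at least 63 and 17, and 68 and 15 reads, and its unshared 5′ end was called higher in all 3 lines with ratios of 1.93, 1.66 and 1.45. In these genes the neighbour and the ribosomal protein gene cannot be told apart within the shared region.

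At the other end of the range, 4 genes had no region called higher in any line. MRPS35, a small subunit protein, was covered by 303 reads over 13 regions of the 3 lines, and its widest region (chromosome 12, 27908111 to 27909170) had 19 and 25, 17 and 24, and 25 and 21 reads, with ratios of 0.79, 0.68 and 0.80 and adjusted p of 0.1482, 0.3031 and 0.1114 (exact binomial test). MRPS36 had 91 reads over 10 regions, MRPL13 82 over 8 and MRPL39 79 over 7. Further genes were higher in a single line, namely MRPL1, MRPL21, MRPL22, MRPL3, MRPL42 and MRPS22 in HPr1AR, and MRPL18 and MRPS10 in 22Rv1. None was higher in LNCaP alone. The shares of all genes higher in no line or in a single line were not computed, so these counts have no background.

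The regions called lower belonged to MRPL3 and MRPL42, both large subunit genes. A gene with a lower region was 1 of 77 in each line, against 1.12%, 1.1% and 3.89% of all listed genes in HPr1AR, LNCaP and 22Rv1. In MRPL3 (chromosome 3) an intron region of HPr1AR (131197961 to 131198080) had 2 and 24 reads, a ratio of -2.39 (95% Clopper-Pearson interval -5.52 to -0.38) with an adjusted p of 0.02532 in the exact binomial test. It holds an exon of SNORA58, a small nucleolar RNA, and the same place had 0 and 12 reads in LNCaP and 2 and 8 in 22Rv1, which were not called. An internal exon (131220381 to 131220560) had 2 and 26 reads in LNCaP, a ratio of -2.52 (-5.64 to -0.53), beside 4 and 11 in HPr1AR and 10 and 22 in 22Rv1, which were not called. The 5′ end of MRPL3 had 19 and 17, 19 and 20, and 16 and 32 reads and was called higher only in HPr1AR. Its 3′ end, at 13 and 38, 22 and 40, and 20 and 34 reads, was not called in any line.

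MRPL42 had its lower region in 22Rv1, in an exon region labelled 3′ end by the rule above (chromosome 12, 93881261 to 93881450). It lies before the last listed exon region of the gene. The region had 4 and 20 reads, a ratio of -1.77 (-3.78 to -0.20) and an adjusted p of 0.03636 in the exact binomial test. LNCaP had 5 and 25 reads and HPr1AR 3 and 15 there, with ratios of -1.14 and -1.13 that were not called. Thus m6A reads were fewer than IgG reads per depth in all 3 lines, and 1 passed the test.

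**Figure D4:**
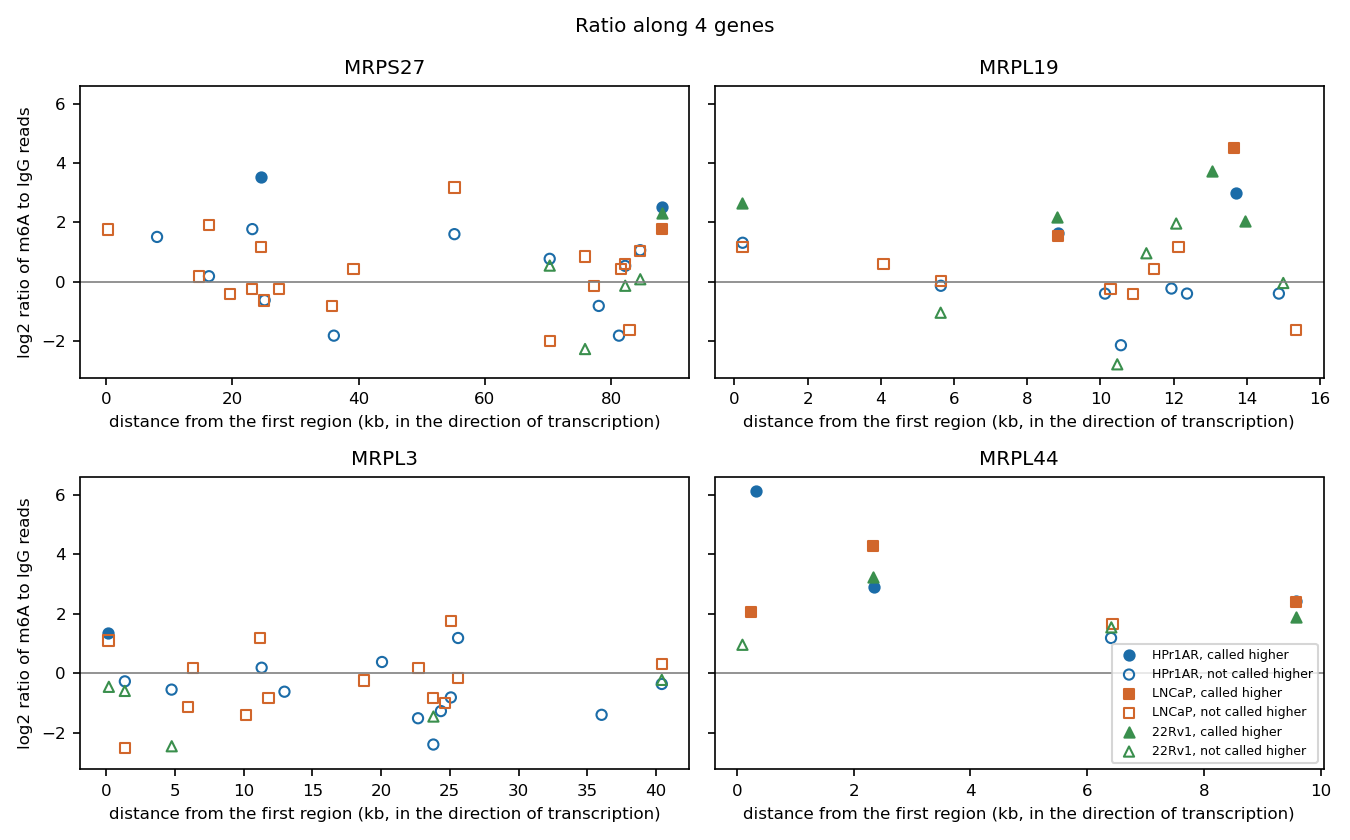
Log2 read ratio of each region (y axis) against its distance from the first region of the gene in kb, in the direction of transcription, for MRPS27, MRPL19, MRPL3 and MRPL44; filled symbols were called higher, and the grey line marks a ratio of 0. In MRPS27 the 3 lines meet at the 3′ end with filled symbols, while MRPL3 has a single filled symbol, at its 5′ end in HPr1AR.

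The lines were compared at overlapping regions, with an exact conditional test of the 4 read numbers adjusted over all overlapping pairs. Any overlap was enough to pair regions, and each region's reads are those of its own representative window. The windows of a pair may therefore lie apart, and a called difference need not be one at the same site. Few differences passed in the family. Between HPr1AR and LNCaP, 2 of 234 member pairs were called, 1 in each direction, against 0.464% of 65496 pairs (0.229% with the higher ratio in HPr1AR, 0.235% in LNCaP). Between HPr1AR and 22Rv1, 1 of 208 was called, with the higher ratio in HPr1AR, against 0.558% of 52129 (0.389% in that direction, 0.169% in the other). Between LNCaP and 22Rv1, 0 of 214 were called, against 0.326% of 53092 (0.23% with the higher ratio in LNCaP, 0.0961% in 22Rv1). There 16 member pairs had an unadjusted p of 0.05 or less in the exact conditional test, and the smallest adjusted p was 0.4585, at MRPL52.

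The depths bear on the comparisons with 22Rv1, whose ratios are centred furthest from 0. With centred depths, HPr1AR and LNCaP still gave 2 called differences, while HPr1AR and 22Rv1 gave 15 and LNCaP and 22Rv1 gave 7. In the comparisons with 22Rv1, every one of these had the lower ratio in 22Rv1. Shares over all pairs were not computed at this setting, so these counts have no background. In the test without centring, 40, 33 and 39 member pairs could not be decided because a deposited p-value of 0 or an unmatched fold left the reads as bounds. In simulated pairs of HPr1AR and 22Rv1 regions, a log2 difference of 3 was called in 53.5%, so smaller differences would mostly be missed. The simulated regions were drawn with more reads than a typical member region, whose median was 17 in HPr1AR and 19 in 22Rv1. In addition, 200 of the 3000 simulated pairs were changed, a larger share than was called in the data. The 53.5% may therefore be too high for these data.

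MRPS16, a small subunit protein, had 55 and 42 reads in HPr1AR and 52 and 4 in LNCaP at its 3′ end (chromosome 10, 75005671 to 75009510 in HPr1AR). The ratios were 1.58 and 4.88, a difference of -3.30 with an adjusted p of 5.361e-04 in the exact conditional test. The region holds exons of DNAJC9, a chaperone gene, and its antisense RNA, so the gene behind the difference cannot be told apart. In 22Rv1 the same stretch was listed as 2 regions, with 16 and 0 and with 22 and 13 reads. MRPL35 had at least 56 and 5 reads in HPr1AR against 8 and 8 in LNCaP, a difference of at least 3.50 with an adjusted p of at most 0.04768 in the exact conditional test. There the 3′ stretch was 1 region in HPr1AR and 2 in LNCaP, and the second LNCaP region, with at least 60 and 7 reads, lay in the same HPr1AR region.

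MRPL44 had the third called difference, at its 5′ end: 31 and 1 reads in HPr1AR against 8 and 6 in 22Rv1, a difference of 5.18 with an adjusted p of 0.03481 in the exact conditional test. The 22Rv1 region covered 150 bases of the 640 of HPr1AR. The internal and 3′ regions of the same gene were called higher in both lines; the difference at the 3′ end was not called (adjusted p = 1, exact conditional test), and that of the internal region could not be decided. Differences just outside the threshold were those of an MRPS15 internal region (13 and 4 reads in HPr1AR against 2 and 9 in 22Rv1, adjusted p = 0.05429), of an MRPL30 region that holds TXNDC9 (30 and 25 in HPr1AR against 16 and 0 in LNCaP, adjusted p = 0.0614) and of an MRPL38 region that holds FBF1 (53 and 32 in HPr1AR against 47 and 3 in 22Rv1, adjusted p = 0.1022), all by the exact conditional test. MRPL41, with at least 60 and 25 reads in HPr1AR, at least 71 and 81 in LNCaP and about 63 and 51 in 22Rv1, was among the undecided pairs.

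**Figure D5:**
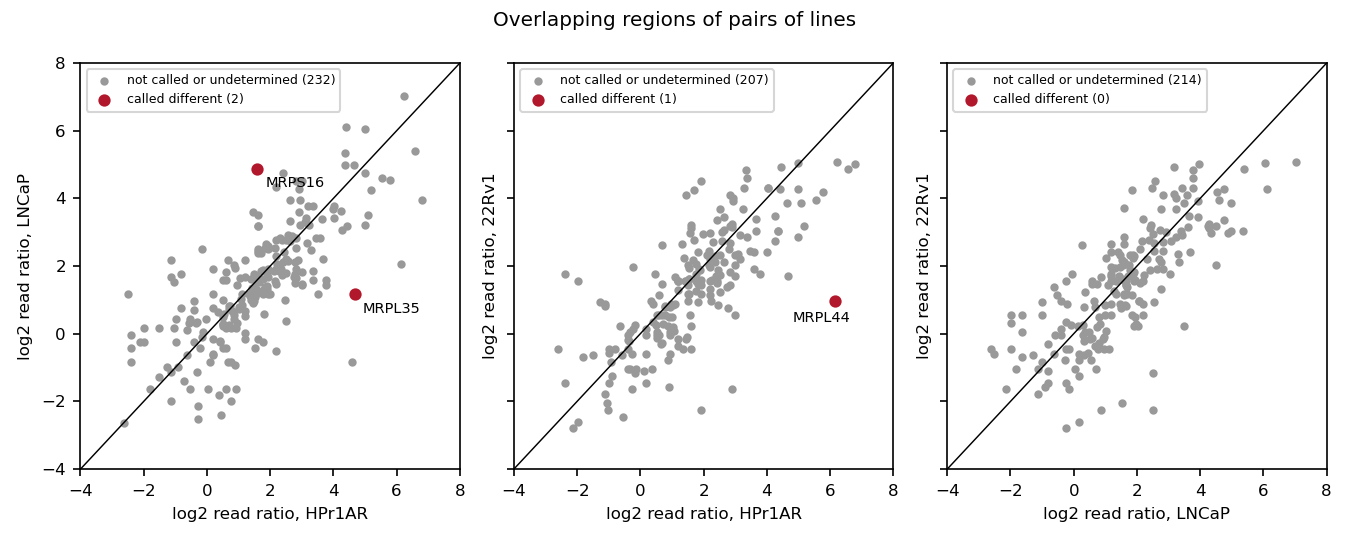
Log2 read ratios of overlapping member regions in pairs of lines, 1 panel per pair; the diagonal marks equal ratios, red points passed the exact conditional test, and grey points did not pass or could not be decided. MRPS16 lies on the LNCaP side, MRPL35 and MRPL44 on the HPr1AR side, and the panel of LNCaP and 22Rv1 has no red point.

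Genes that serve the mitochondrial ribosome were looked at in the same way. The counts below stand beside 93.1%, 90.8% and 91.2% of all listed genes called higher in HPr1AR, LNCaP and 22Rv1, and none of the lists was tested against them. Of 5 mitoribosome proteins named otherwise, all 5 were higher in each line. The reads printed are those of each line's leading region, which need not be the same stretch. DAP3, a GTP-binding small subunit protein, had 49 and 4 reads in HPr1AR, in a region that also holds an exon of YY1AP1. Its leading regions in LNCaP and 22Rv1 hold no YY1AP1 exon and had at least 65 and 32, and 57 and 19 reads. CHCHD1 had at least 60 and 22, at least 64 and 27, and 73 and 13.

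Of 17 mitochondrial translation factors and regulators, 15, 15 and 17 were higher in HPr1AR, LNCaP and 22Rv1. GUF1 and LRPPRC, the latter a stabiliser of mitochondrial mRNAs, had no higher region in HPr1AR and LNCaP, and LRPPRC had 2, 1 and 1 regions called lower in HPr1AR, LNCaP and 22Rv1. GUF1 had 1 region called lower in 22Rv1. TACO1, a translational activator of the COX1 mRNA, had at least 56 and 2, at least 61 and 9, and 80 and 8 reads, and MTRFR, a release factor homologue, at least 56 and 3, at least 59 and 3, and 58 and 6. The MTRFR region was an intron region in LNCaP and an exon region in HPr1AR and 22Rv1.

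Of 25 assembly and rRNA modification genes, 24 were higher in each line. The exception was C1QBP, a matrix protein, whose leading region also holds an RPAIN exon and had 33 and 61, 46 and 76, and 51 and 58 reads. RPUSD4, a pseudouridine synthase, had at least 56 and 4, at least 62 and 12, and 80 and 1 reads, for a ratio of 6.87 in 22Rv1. Of 16 listed mitochondrial aminoacyl-tRNA synthetases, 14 were higher in each line, while IARS2 and RARS2 were not and VARS2 was not listed. IARS2 had 1, 2 and 1 regions called lower. PARS2 had at least 56 and 3, at least 59 and 3, and 84 and 3 reads.

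The cytosolic ribosomal protein genes, whose products form the ribosome that translates the mitochondrial ribosomal proteins, were called higher less often: 52 of 82 listed in HPr1AR (63.4%), 46 of 81 for LNCaP (56.8%) and 35 of 81 for 22Rv1 (43.2%), beside 92.2%, 81.8% and 84.4% of the mitochondrial set. By region the cytosolic set had 28.0%, 23.8% and 20.3% higher, beside 44.1%, 39.4% and 48.4%. They had 2, 1 and 9 genes with a region called lower, against 1 in each line for the mitochondrial set. The difference between the sets was not tested, and their median number of regions per line was 3, 3 and 2, beside 3 in each line.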

How the data were processed

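RNA from 17 samples of 3 prostate lines was pulled down with an m6A or an IgG antibody and sequenced, per the labels' protocols. The authors deposited, per line, a table of genomic regions with a log2 fold, a p-value and an adjusted p-value, and no value per sample. The submitters' processing notes name hg38. Which aligner and region caller made the tables is not stated there. The deposited log2 fold equals a constant plus the log2 of the numerator reads minus 2 times the log2 of the reference reads of 1 window per region. From that fold and the deposited p-value, whole reads were rebuilt: 99.999%, 99.8% and 99.9% of regions with a p above 0 matched in HPr1AR, LNCaP and 22Rv1, against 0.26%, 8.56% and 0.35% after a random shift of the fold. The numerator was taken as m6A, and the line of each table, from the table names; the sample descriptions name the tables in an order that conflicts with the sample titles, so the line of each table is assumed. The tolerance was 0.08 on the −log10 p and at most 0.01 on the log2 fold.

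The read ratio was tested per region with a 2-sided exact binomial test against the depths, adjusted by Benjamini-Hochberg over all regions of a line at 0.05. Counts of 0 used a floor of 3 reads. Overlapping regions of pairs of lines were compared by an exact conditional test of the reads, adjusted over all pairs. On 6000 simulated regions per line, a log2 ratio of 2 was called in 31.5%, 19.5% and 44% of the changed regions of HPr1AR, LNCaP and 22Rv1, and 0.154%, 0.0769% and 0.25% of the unchanged regions were called. These regions took their read totals only from regions with an exact read pair. A smaller share of them was changed than was called in the data, so these shares may not hold for the data. On 3000 simulated pairs of HPr1AR and 22Rv1 regions, 53.5% of log2 differences of 3 were called. These pairs were drawn with more reads than a typical member region, so the share may be too high for the data.

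The genes named are, per line, the 8 with the smallest adjusted p, those with a lower region, those with no higher region in any line, the 5 with the smallest p of difference per pair of lines, the 5 with the most regions, and the MRPS18 paralogues, with up to 3 genes per pathway list. The gene family, lists and rules were taken up with earlier results of these data known, although the symbol rule itself uses no value. The sources do not say how the labels' samples entered each table, so a p-value here covers counting error of pooled reads and no spread between replicates. Of 856 member regions whose gene has a RefSeq span, 36 (4.21%) overlap that span in GRCh38.p14, so coordinates are printed as deposited, with the build uncertain, and only the promoter stretches carry GRCh38.p14 positions. Promoter motifs were shortened to at most 9 letters after a first search with longer forms. Alternatives covered the depth centring, the threshold, shared exons, exact pairs, read minimum, exon regions, windows and overlap. Analyses used Python 3.11.15, numpy 2.4.6, pandas 2.3.3 and scipy 1.17.1.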

Additional observations from a re-analysis of the deposited data

Results flagged for a closer look

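Differences between lines were called by the exact conditional test at 3 overlapping region pairs of mitochondrial ribosomal protein genes. The log2 read ratio of MRPS16 in HPr1AR minus that in LNCaP was -3.30, with higher ratios in LNCaP. The difference of HPr1AR minus LNCaP was at least 3.50 at MRPL35, and HPr1AR minus 22Rv1 was 5.18 at MRPL44. Each rests on pooled reads of a single window per line, so no replicate stands behind it, and the windows of a pair may lie apart. MRPL35 was not called at a threshold of 0.01 or with shared regions left out, and a second LNCaP region that overlaps the same HPr1AR region had a log2 read ratio of at least 4.28. MRPL44 was not called at 0.01 or with exact read pairs only. Both pairs drop out at 50% reciprocal overlap and with at least 20 reads, and that of MRPL35 also with exact read pairs only.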

How the results depend on the processing

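No paired analysis was possible because the tables hold no value per sample, and for the same reason no replicate could be left out. The counts below are for HPr1AR, LNCaP and 22Rv1. Of 94 recomputed counts, 63 stayed within 1.5 times the reported value and 31 moved. Centring the IgG depth moved most: 66, 61 and 27 regions were higher, 27, 21 and 70 lower, 19 genes were higher in 22Rv1 and 18 in all lines, and the HPr1AR–22Rv1 and LNCaP–22Rv1 comparisons gave 15 and 7 differences. At that depth the shares of all regions called lower and of all pairs called different were not computed. Keeping only regions with an exact read pair drops those with a deposited p of 0, with several fitting pairs or with none. It left 66 higher regions and 37 higher genes in LNCaP, 35 genes in all lines, 1 HPr1AR–LNCaP difference and 0 HPr1AR–22Rv1. Leaving out shared regions left 79 higher in LNCaP, 0 lower in HPr1AR and 0 HPr1AR–LNCaP differences. The lower regions fell to 0 in each line at a threshold of 0.01 and with p multiplied by the number of windows, and to 0 in HPr1AR with exon regions only; the cause of each change was not tested. The differences between HPr1AR and LNCaP and between HPr1AR and 22Rv1 were 1 and 0 at 0.01, 1 and 0 with 50% reciprocal overlap, and 1 and 2 with at least 20 reads. The 2 were MRPL38 and MRPL35 between HPr1AR and 22Rv1, neither of them called in the main test. The HPr1AR–LNCaP difference of MRPL35 lost its call at 0.01 and without shared regions, and its pair dropped out with at least 20 reads and with exact pairs only. The HPr1AR–22Rv1 difference of MRPL44 lost its call at 0.01 and with exact pairs only, and its pair dropped out with at least 20 reads. Low read numbers limit most regions: median 17, 14 and 19 reads. Leaving out MRPL30, chosen after seeing the data, left 16, 6 and 5 higher intron regions of 22, 14 and 14.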
